A study of Oryza sativa Indica Group with 27 samples.

Results

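The 8 genes described here encode the light-harvesting proteins of photosystem II in rice. They were taken from the deposited gene table by their RAP identifiers, 8 of 37869 genes, and the rule itself used no measured value. They comprised 3 Lhcb1 genes (Os01g0600900, Os09g0346500 and Os01g0720500), Lhcb2 (Os03g0592500), Lhcb3 (Os07g0562700), Lhcb4 or CP29 (Os07g0558400), Lhcb5 or CP26 (Os11g0242800) and Lhcb6 or CP24 (Os04g0457000). All 8 were listed above 0 in all 9 mRNA libraries.

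Photosystem II is the chloroplast complex that uses light to split water. Around its core sits an antenna of membrane proteins that bind chlorophyll a, chlorophyll b and carotenoids and pass absorbed energy inwards. Lhcb1, Lhcb2 and Lhcb3 build the trimers of the major antenna, LHCII. Lhcb4, Lhcb5 and Lhcb6 are monomers that lie between the trimers and the core. All are encoded in the nucleus, made in the cytosol and imported into the chloroplast, and in plants their transcripts are known to respond to light and to the circadian clock.

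The study compared how rice plants of different drought tolerance respond when water is withdrawn. WT was the japonica cultivar Nipponbare, erf71 (labelled AP2) was transgenic Nipponbare that overexpresses OsERF71, a transcription factor of the AP2/ERF family, and Vandana was a drought-tolerant indica variety. Seedlings with 3 leaves, grown in Yoshida's culture solution, were frozen whole. Time is given in hours after treatment (HAT), the treatment being removal of the solution, with the untreated controls at 0 HAT and treated plants at 1 and 6 HAT. Each plant and time had 1 mRNA library, so no replicate error could be given and no difference between libraries was tested. The promoter of the transgene and the number of transgenic lines pooled were not given in the sources used here. No untreated plant was kept until 1 or 6 HAT in the libraries used here, so dehydration and time of day cannot be told apart. As whole plants were used, fewer green cells and less RNA per green cell cannot be told apart either.

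Values are FPKM, fragments scaled to transcript length and to the mapped total of the library, so that levels of different genes could be set side by side. A gene is said to have risen or fallen when FPKM differed at least 2-fold, on the log2(FPKM + 0.1) scale, and one of the libraries compared reached 1 FPKM. The read depth behind the FPKM was not known. The libraries summed to between 702034 and 857472 FPKM. The Vandana library at 6 HAT stood apart, with 12398 genes at 0 (7323 to 9411 in the others) and a median of 0.343 FPKM over all genes (1.31 to 2.43 in the others).

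The labels were checked on genes named by the study. Dip1 (Os02g0669100), a gene induced by dehydration, was at 92.6, 329 and 2583 FPKM in WT and at 86.8, 317 and 3354 FPKM in erf71 at 0, 1 and 6 HAT. In Vandana it was at 383 FPKM in the library labelled 0 HAT, at 101 FPKM in that labelled 1 HAT and at 2275 FPKM at 6 HAT. Thus the first pair of Vandana libraries ran against the order of their labels, and both are referred to below as labelled. OsERF71 (Os06g0194000) was at 133, 122 and 187 FPKM in WT, and higher in erf71 at each time, at 201, 172 and 264 FPKM. At each time its level in erf71 was less than 2-fold above that in WT, with 1 library of each. In Vandana it was at 138, 159 and 50.8 FPKM.

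Before treatment the antenna genes were among the most abundant transcripts of the seedlings. In WT at 0 HAT their summed level was 21809 FPKM, or 2.59% of the FPKM of the library. The sum was 16686 FPKM (2.02%) in erf71 and 28742 FPKM (3.53%) in the Vandana library labelled 0 HAT. Lhcb2 had the highest level of the 8 genes at 0 and 1 HAT in all 3 plants, followed in one order or the other by the Lhcb1 genes Os09g0346500 and Os01g0600900. The lowest was the Lhcb1 gene Os01g0720500 in 8 of the 9 libraries, and Lhcb5 in WT at 0 HAT. With 1 library per group, neighbours in this order cannot be ranked beyond replicate spread.

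Among the trimer proteins, Lhcb2 was at 5604, 5314 and 687 FPKM in WT at 0, 1 and 6 HAT. In erf71 it was at 4171, 3433 and 541 FPKM, and in Vandana at 7141, 6989 and 809 FPKM. Lhcb2 was therefore similar at 0 and 1 HAT and lower at 6 HAT in each plant, where the 0 HAT level was 8.16, 7.71 and 8.82 times the 6 HAT level in WT, erf71 and Vandana. Lhcb3, the least abundant of the trimer subunit types in WT, was at 1999, 2274 and 296 FPKM. It was at 1774, 1381 and 199 FPKM in erf71 and at 2806, 3231 and 552 FPKM in Vandana. All 6 libraries of Lhcb3 at 0 and 1 HAT lay above all 3 at 6 HAT.

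The Lhcb1 genes code for nearly the same protein, and how the reads were divided among the copies was not known, so that each copy is less certain than their sum. Os01g0600900 was at 3267, 4566 and 955 FPKM in WT, at 2428, 1873 and 880 FPKM in erf71 and at 5691, 5395 and 1390 FPKM in Vandana. Os01g0720500, the copy of lowest level, was at 1755, 1293 and 140 FPKM in WT, at 878, 640 and 72.8 FPKM in erf71 and at 840, 698 and 63.1 FPKM in Vandana. Both copies were lowest at 6 HAT in every plant. Os09g0346500 was at 3336, 3427 and 1568 FPKM in WT and at 2806, 2114 and 891 FPKM in erf71, but at 5870, 5734 and 6288 FPKM in Vandana. It was the only one of the 8 genes for which a library at 6 HAT was not below those of the same plant at 0 and 1 HAT. The summed level of the Lhcb1 genes was 8357, 9286 and 2662 FPKM in WT, 6113, 4626 and 1843 FPKM in erf71, and 12401, 11827 and 7740 FPKM in Vandana.

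Among the monomeric proteins, Lhcb4 was at 2117, 2207 and 314 FPKM in WT, at 1554, 1133 and 153 FPKM in erf71 and at 2709, 3187 and 360 FPKM in Vandana. Lhcb5 was at 1742, 1798 and 159 FPKM in WT, at 1338, 988 and 85.2 FPKM in erf71 and at 2266, 2638 and 385 FPKM in Vandana. Both were highest in Vandana and lowest in erf71 at each time. Lhcb6 was at 1990, 2146 and 245 FPKM in WT, at 1735, 1177 and 75.5 FPKM in erf71 and at 1420, 1647 and 145 FPKM in Vandana. For Lhcb6 the order of the plants differed, WT being highest at every time.

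**Figure D1:**
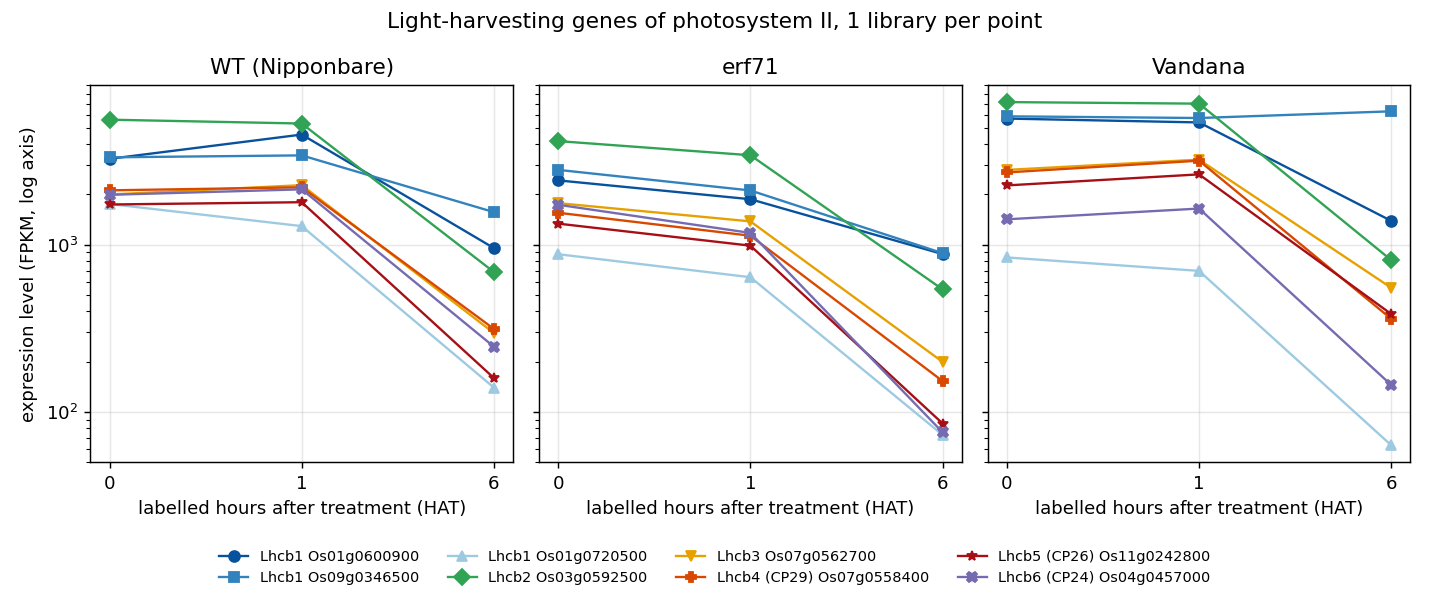
Expression levels in FPKM (log axis) of the 8 light-harvesting genes at 0, 1 and 6 HAT (x axis, labelled hours) in WT, erf71 and Vandana, 1 library per point. The genes lie close to their 0 HAT level at 1 HAT and far below it at 6 HAT, except for Os09g0346500 in Vandana, which is at 6288 FPKM at 6 HAT.

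Within the first hour none of the 8 genes rose or fell 2-fold in any plant. Of all genes tested in WT, 10.5% rose and 12.3% fell over this hour. In erf71 5.72% rose and 6.03% fell, and between the Vandana libraries labelled 0 and 1 HAT 5.89% rose and 8.78% fell. The direction of the small differences varied with the plant. In WT the median log2 change of the 8 genes was 0.05, with 6 genes above 0, and the median over all genes was −0.20. The values ran from −0.44 for Os01g0720500 to 0.48 for Os01g0600900. In erf71 all 8 genes were lower at 1 HAT than at 0 HAT, from −0.28 for Lhcb2 to −0.56 for Lhcb6, with a median of −0.42 against −0.12 over all genes. The summed level of the 8 genes at 1 HAT was 106% of that at 0 HAT in WT and 76.3% in erf71. In the library labelled 1 HAT of Vandana it was 103% of that labelled 0 HAT, and 4 genes lay above 0 and 4 below.

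The log2 change in erf71 minus that in WT was below 0 for all 8 genes over the first hour, with a median of −0.50 against 0.05 over all genes. It ran from −0.02 for Os01g0720500 to −0.86 for Os01g0600900. Among the other genes it was −0.67 for Lhcb6, −0.55 for Lhcb3, −0.52 for Lhcb4, −0.48 for Lhcb5 and −0.20 for Lhcb2. Each of these differences is less than 2-fold and rests on 4 libraries without replicates.

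By 6 HAT all 8 genes had fallen in WT and in erf71, and 7 of the 8 in Vandana. The share of all tested genes that fell was 37.3% in WT, 34.8% in erf71 and 61.4% in Vandana. Among genes of high level, those reaching 100 FPKM in either library, it was 35.7%, 28.7% and 32.9%. The median log2 change of the 8 genes was −2.89 in WT, −3.25 in erf71 and −2.73 in Vandana. The corresponding medians over all genes were −0.60, −0.53 and −1.71, and over genes of high level −0.28, −0.03 and 0.27. For Vandana the count of 7 of 8 is thus to be read against a library in which most tested genes fell, though 32.9% of those of high level did. The sum of the 8 genes at 6 HAT was 20.0% of that at 0 HAT in WT, 17.4% in erf71 and 34.8% in Vandana. The Vandana value was 89.3% after upper quartile scaling and 74.5% after median ratio scaling, whereas WT reached at most 26.5% and erf71 at most 21.7% under the 3 other scalings. In Vandana the number of fallen genes was 5 and 6 after these 2 scalings, with 1 gene risen.

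Measured from 1 HAT, the same 8, 8 and 7 genes had fallen by 6 HAT, with medians of −2.95 in WT, −2.84 in erf71 and −2.94 in Vandana. Over that interval 30.2%, 29.3% and 61.7% of all tested genes fell. The Vandana result therefore differed little between the libraries labelled 0 and 1 HAT as the start. The counts from 1 HAT depended on the scaling. After upper quartile scaling 7 genes had fallen in WT and 6 in erf71, and after median ratio scaling 7 in each. In Vandana 6 had fallen and 1 had risen under both.

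The depth of the fall differed among the members. Of its 0 HAT level in WT, Os01g0720500 retained 7.96%, Lhcb5 9.15%, Lhcb2 12.3%, Lhcb6 12.3%, Lhcb3 14.8% and Lhcb4 14.8%, whereas the Lhcb1 copies Os01g0600900 and Os09g0346500 retained 29.2% and 47.0%. These last were also the most retained in erf71, at 36.2% and 31.7%. The fall of Os09g0346500 in WT, −1.09 on the log2 scale, was less than 2-fold under each of the 3 other scalings of the libraries (−0.83 to −0.68).

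In erf71 the lowest retention was 4.35% for Lhcb6 and 6.37% for Lhcb5, followed by 8.29% for the Lhcb1 copy Os01g0720500 and 9.84% for Lhcb4. Lhcb3 retained 11.2% and Lhcb2 13.0%. The log2 change of Lhcb6 was −4.52 in erf71 and −3.02 in WT, a difference of −1.503, while the median difference over all genes was 0.08. The difference was −0.59 for Lhcb4, −0.52 for Lhcb5, −0.40 for Lhcb3 and 0.08 for Lhcb2. Of the Lhcb1 copies, Os09g0346500 was at −0.57, Os01g0720500 at 0.06 and Os01g0600900 at 0.31. As deposited, 5 of the 8 genes had a larger fall in erf71 than in WT, all 3 monomeric subunits among them. The share of all genes with a larger fall in erf71 was not computed. The count depended on the scaling. Os01g0720500 fell further in erf71 under each of the 3 other scalings, as at −3.45 against −3.39 in WT after equal sum scaling. Lhcb2 was then at −2.80 in erf71 and −2.77 in WT.

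In Vandana Os01g0720500 retained 7.52% of the level in the library labelled 0 HAT, Lhcb6 10.2%, Lhcb2 11.3%, Lhcb4 13.3%, Lhcb5 17.0%, Lhcb3 19.7% and Os01g0600900 24.4%. Os09g0346500 was at 107%, a log2 change of 0.10. The change in Vandana minus that in WT was 1.19 for this copy and 0.89 for Lhcb5, and between −0.27 and 0.41 for the other 6 genes. The median difference was −0.98 over all genes and 0.02 over genes of high level. These differences depend on the scaling. Upper quartile and median ratio scaling raise each change by 1.36 and 1.10 in Vandana, but by 0.40 and 0.35 in WT. Equal sum scaling shifts each change by −0.07 in Vandana and 0.26 in WT. For the sum of the Lhcb1 genes the log2 change was −0.68 in Vandana, −1.65 in WT and −1.73 in erf71. After upper quartile or median ratio scaling the Vandana value changed direction, to 0.68 or 0.42, while WT and erf71 stayed at or below −1.25 under the 3 other scalings. The deposited Vandana values came from reads placed on the Nipponbare genome, and the part of this, and of the sparse 6 HAT library, in the value of Os09g0346500 was not tested.

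**Figure D2:**
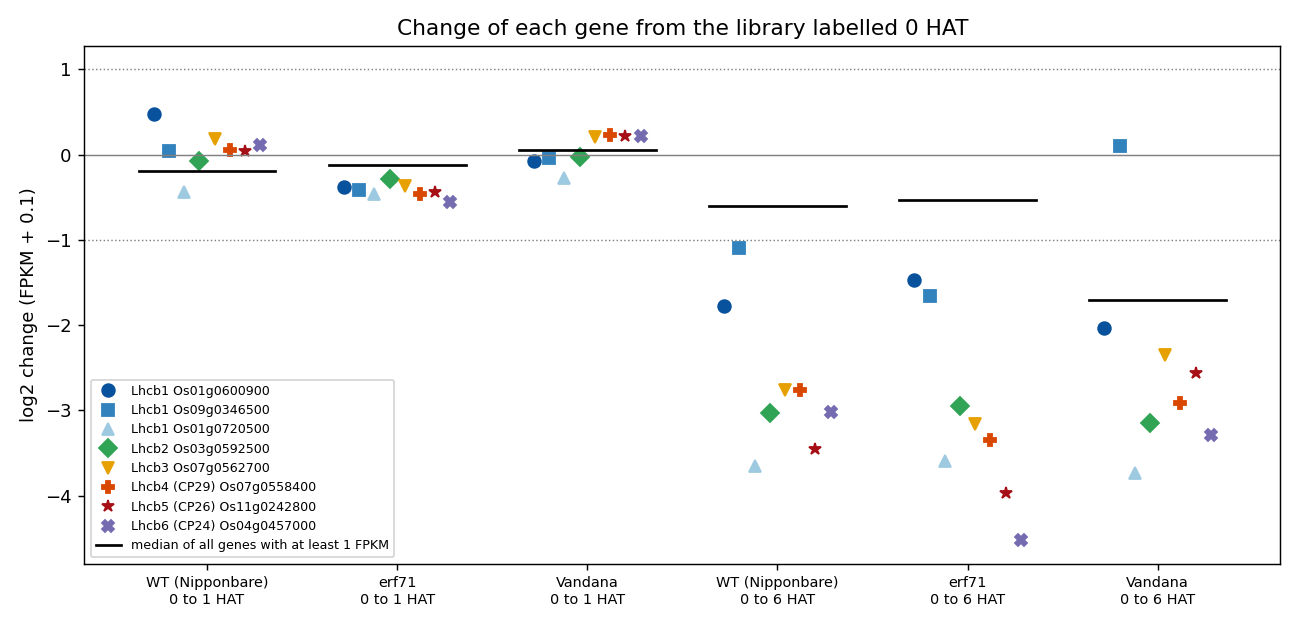
Log2 change of FPKM + 0.1 (y axis) of each of the 8 genes from the library labelled 0 HAT to those at 1 and 6 HAT in WT, erf71 and Vandana (x axis), 1 point per gene; black bars are medians over all genes with at least 1 FPKM and dotted lines mark 2-fold. No point passes 2-fold at 1 HAT, and at 6 HAT all lie below −1 except Os09g0346500 in Vandana at 0.10.

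As the members fell unequally, the composition of the antenna transcripts differed at 6 HAT. The Lhcb1 genes made up 38.3% of the summed FPKM of the 8 genes at 0 HAT in WT, 40.3% at 1 HAT and 61.0% at 6 HAT. In erf71 these shares were 36.6%, 36.3% and 63.6%, and in Vandana 43.1%, 40.1% and 77.5%. The monomeric subunits together made up 26.8%, 26.7% and 16.5% in WT, 27.7%, 25.9% and 10.8% in erf71, and 22.2%, 25.3% and 8.91% in Vandana. In each plant the Lhcb1 share at 6 HAT was above, and the monomer share below, both earlier libraries. In Vandana Os09g0346500 alone went from 20.4% to 62.9% between 0 and 6 HAT, while Os01g0600900 went from 19.8% to 13.9% and Os01g0720500 from 2.92% to 0.632%. With Os09g0346500 left out, the other Lhcb1 copies made up 27.2% of the remaining 7 genes at 0 HAT and 39.1% at 6 HAT in WT, 23.8% and 47.5% in erf71, and 28.6% and 39.2% in Vandana. The monomer share was then 31.7% and 25.7% in WT, 33.3% and 15.6% in erf71, and 27.96% and 24.0% in Vandana. At 6 HAT Os09g0346500 had taken the place of Lhcb2 as the gene of highest level in all 3 plants. The highest level was 3.22 times the lowest in WT at 0 HAT and 11.2 times at 6 HAT. It was 4.75 and 12.2 times in erf71, and 8.502 and 99.6 times in Vandana. These shares do not depend on the scaling of a library, as all 8 genes of a library are scaled alike.

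**Figure D3:**
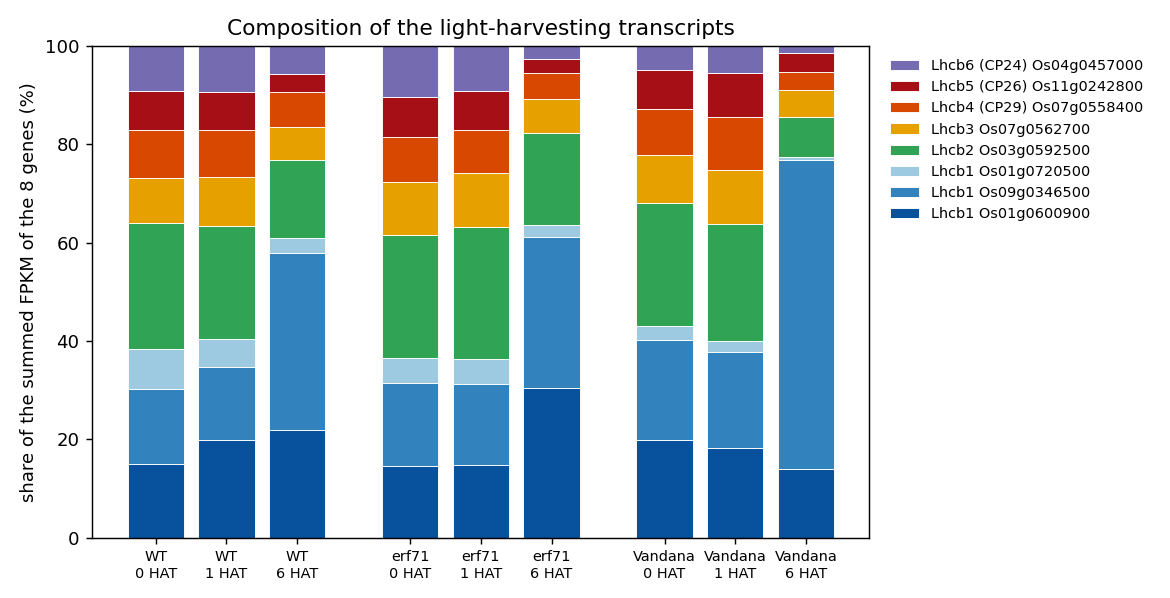
Share of each gene in the summed FPKM of the 8 light-harvesting genes (y axis, %), 1 bar per library. The blue Lhcb1 segments together widen from 38.3% at 0 HAT to 61.0% at 6 HAT in WT, from 36.6% to 63.6% in erf71 and from 43.1% to 77.5% in Vandana.

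Between erf71 and WT at the same time, all 8 genes were lower in erf71 at 0, 1 and 6 HAT, and this held under each of the 3 other scalings of the libraries. At 0 HAT no gene was 2-fold lower, while 6.52% of all tested genes were. The median log2 ratio of the 8 genes was −0.40, against −0.05 over all genes, and the values ran from −0.17 for Lhcb3 to −0.999 for Os01g0720500, which lay just inside 2-fold. Their summed level in erf71 was 76.5% of that in WT.

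At 1 HAT the ratios were lower still, with a median of −0.87 against 0.00 over all genes, and a summed level in erf71 of 55.3% of that in WT. The Lhcb1 genes Os01g0600900 (−1.28) and Os01g0720500 (−1.01) were more than 2-fold lower, 2 of 8 genes, beside 10.3% of all tested genes. The other members ran from −0.63 for Lhcb2 to −0.96 for Lhcb4. At 6 HAT the median was −0.86 against 0.04 over all genes. Lhcb6 (−1.70) and Lhcb4 (−1.04) were more than 2-fold lower, again 2 of 8 genes, beside 6.22% of all tested genes. Lhcb5 was at −0.90, Lhcb3 at −0.57, Lhcb2 at −0.34 and Os01g0600900 at −0.12. The Lhcb1 copies Os01g0720500 and Os09g0346500 were at −0.94 and −0.82. Which genes passed 2-fold depended on the scaling. At 1 HAT Lhcb4 passed as well, making 3 genes, after equal sum (−1.004) or median ratio scaling (−1.01), and Os01g0720500 no longer did after upper quartile scaling (−0.98). At 6 HAT Os01g0720500 passed after equal sum scaling (−1.03), again making 3 genes. The comparisons over time and those between plants share libraries, so they are not independent of each other.

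**Figure D4:**
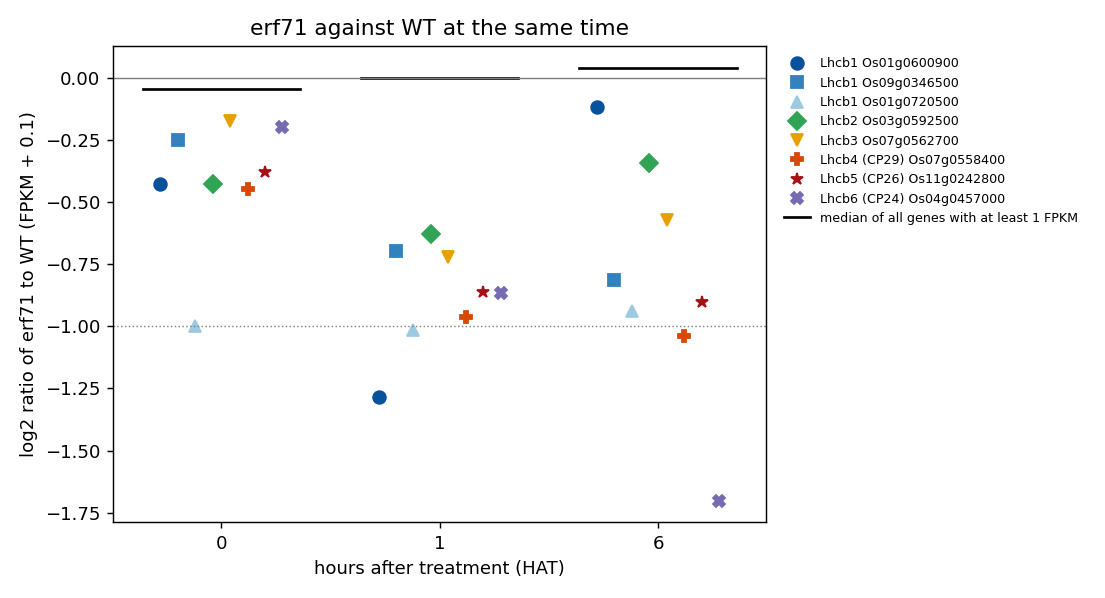
Log2 ratio of erf71 to WT (FPKM + 0.1, y axis) of each of the 8 genes at 0, 1 and 6 HAT (x axis), 1 point per gene from 1 library of each plant; black bars are medians over all genes with at least 1 FPKM and the dotted line marks a 2-fold lower level. All points lie below 0, with medians of −0.40, −0.87 and −0.86.

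Between Vandana and WT, 6 of the 8 genes were higher in Vandana in the library labelled 0 HAT. Their median log2 ratio was 0.37, against −0.11 over all genes and 0.03 over genes of high level. Among all genes 12.8% were 2-fold higher and 20.2% 2-fold lower in Vandana. The copy Os01g0720500 was 2-fold lower (−1.06) and no member was 2-fold higher. Lhcb6 was also lower, at −0.49, while Os09g0346500 and Os01g0600900 were at 0.82 and 0.80. In the libraries labelled 1 HAT no member passed 2-fold, beside 13.8% of all genes higher and 19.4% lower. The median of the 8 genes was 0.45, against 0.12 over all genes and 0.32 over genes of high level. The same 2 genes, Os01g0720500 (−0.89) and Lhcb6 (−0.38), were the ones below 0.

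At 6 HAT Os09g0346500 (2.004) and Lhcb5 (1.27) were more than 2-fold higher in Vandana and Os01g0720500 (−1.15) more than 2-fold lower. Of all genes 17.2% were higher and 54.1% lower. The median of the 8 genes was 0.39, against −1.24 over all genes and 0.49 over genes of high level. It was 1.42 after upper quartile scaling and 1.17 after median ratio scaling, so that the distance of Vandana from WT at 6 HAT depended on the scaling. Under these scalings Os01g0720500 was no longer 2-fold lower (−0.11 and −0.37) and Lhcb6 went from −0.76 to 0.27 and 0.017. After equal sum scaling Lhcb5 no longer passed 2-fold (0.98), Lhcb6 did (−1.05), and Lhcb2 and Lhcb4 changed sign. Summed over the Lhcb1 genes, Vandana was above WT at each time, at 0.57, 0.35 and 1.54, which is opposite to the direction of Os01g0720500.

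Profiles of the members over the libraries were alike, apart from Os09g0346500. Pearson's r of log2(FPKM + 0.1) over the 9 libraries ran from 0.35 to 1.00 over the 28 pairs of members, with a median of 0.94. Without Os09g0346500 the lowest was 0.82. Over the 6 libraries of WT and erf71 all 28 pairs lay between 0.92 and 1.00. These values are descriptions, since the libraries share plants and times.

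Outside the 8 genes, the profiles most like their mean profile over the 9 libraries, among the 14594 genes that reached 10 FPKM in any library, were those of Os03g0843400 (r = 0.996), Os08g0560900 (r = 0.996), Os06g0320500 (r = 0.995), Os04g0689500 (r = 0.994) and Os05g0178300 (r = 0.993). The members themselves ran from 0.66 for Os09g0346500 to 1.00 for Lhcb4. Each member is part of the mean profile, so its own r is partly built in. Even so, 3797 other genes lay above Os09g0346500, 688 above Os01g0720500, 403 above Os01g0600900 and 224 above Lhcb6. At most 17 lay above any of the remaining members. Os06g0320500 was at 2373, 2229 and 482 FPKM in WT, at 2111, 1560 and 267 FPKM in erf71 and at 3264, 3266 and 619 FPKM in Vandana. It is on the list of photosystem I antenna genes used below. Over the 6 libraries of WT and erf71 alone, none of these 5 genes was among the 5 most alike, although their r was at least 0.99 there as well.

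Genes that act beside the antenna were described by lists. Their identifiers were assigned from general knowledge and could not be checked against an annotation, so the lists are given by counts and medians. The photosystem I antenna, whose proteins are relatives of the Lhcb proteins, fell by 6 HAT in 6 of 6 genes in WT, 6 of 6 in erf71 and 5 of 6 in Vandana, with medians of −2.31, −3.13 and −2.10. The summed level of the 8 photosystem II antenna genes stayed between 2.16 and 3.35 times that of the photosystem I antenna in all 9 libraries. Of 7 genes for core and oxygen-evolving subunits of photosystem II, 6 fell in WT, 7 in erf71 and 5 in Vandana, with medians of −2.11, −3.62 and −1.61. Among all tested genes 37.3%, 34.8% and 61.4% fell, with medians of −0.60, −0.53 and −1.71. Among genes of high level 35.7%, 28.7% and 32.9% fell, with medians of −0.28, −0.03 and 0.27. In Vandana the core median was thus no lower than that over all tested genes, but below that over genes of high level. Os07g0147500 had the lowest value of the core list in WT at −3.96 and Os08g0119800 the highest at 0.12. At 1 HAT the erf71 to WT ratio was −0.74 at the median of the photosystem I antenna and −0.53 at that of the core subunits, and at 6 HAT −0.96 and −0.94.

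Chlorophyll is bound by every antenna protein. Of 8 genes listed for chlorophyll synthesis, 7 fell and 1 rose by 6 HAT in WT and in erf71, and 7 fell in Vandana, with medians of −2.38, −2.78 and −4.11. Beside these, 37.3%, 34.8% and 61.4% of all tested genes fell. In WT Os03g0563300 was lowest at −3.92 and Os10g0567100 highest at 3.56. Of 5 genes listed for chlorophyll breakdown, 5 rose in WT, 4 in erf71 and 4 in Vandana, and none fell, with medians of 3.02, 2.70 and 1.76. Of all tested genes 14.6%, 14.9% and 14.8% rose by 6 HAT, and of genes of high level 30.5%, 32.7% and 38.5%. In WT Os03g0654600 was lowest at 1.14 and Os01g0227100 highest at 3.43. The summed level of the breakdown list was 159, 227 and 1210 FPKM in WT at 0, 1 and 6 HAT, 145, 167 and 1064 FPKM in erf71 and 167, 137 and 602 FPKM in Vandana.

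Photoprotection genes, which dissipate or balance excess light in the antenna, were mixed. Of 4 genes, 2 fell and 1 rose in WT by 6 HAT, 3 fell and 1 rose in erf71, and 2 fell in Vandana. In WT the lowest was Os04g0379700 (−3.46) and the highest Os04g0448900 (1.32). Of 5 genes listed as regulators or for assembly of the antenna, 3 fell in WT, 4 in erf71 and 4 in Vandana, and none rose, with medians of −1.26, −1.63 and −3.01. Os03g0131900 was lowest in WT at −3.47 and Os01g0239000 highest at −0.45. Beside both lists, 37.3%, 34.8% and 61.4% of all tested genes fell, and 14.6%, 14.9% and 14.8% rose. With lists of 4 and 5 genes, the counts in Vandana cannot be set apart from its share.

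Lists that bear on tissue and time of day were also examined. Of 8 circadian clock genes, 1 fell and 2 rose by 6 HAT in WT and in erf71, and 7 fell in Vandana, beside the 37.3%, 34.8% and 61.4% of all tested genes that fell. In WT and erf71 these counts were not above the shares over all genes taken in both directions. Such a count cannot show whether the clock had moved. In WT Os08g0157600 was lowest at −3.29 and Os01g0182600 highest at 2.31. The same genes were lowest and highest in erf71, at −3.26 and 2.32. The 4 green tissue markers, Rubisco and Rubisco activase genes, all fell in each plant, with medians of −4.29, −4.11 and −5.39. Os11g0707000 was lowest in WT at −5.23 and the Rubisco small subunit gene Os12g0291100 highest at −3.53. Their summed level was 29018, 25498 and 1542 FPKM in WT, 24078, 17322 and 1327 FPKM in erf71 and 31972, 37580 and 890 FPKM in Vandana. The antenna sum was 0.75 times that of the green markers in WT at 0 HAT and 2.83 times at 6 HAT. It went from 0.69 to 2.18 times in erf71 and from 0.90 to 11.2 times in Vandana, so the green markers fell further than the antenna genes in each plant.

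The 6 root markers summed to 1456, 340 and 232 FPKM in WT, to 2057, 840 and 255 FPKM in erf71 and to 1137, 1436 and 936 FPKM in Vandana. At most 1 of the 6 was at 0 in any library. In WT Os03g0107300 had the lowest change by 6 HAT, −5.96, and Os02g0112100 the highest, −1.12, and all 5 root markers that reached 1 FPKM fell. Os02g0112100 did not reach 1 FPKM, being at 0.117 FPKM at 0 HAT and at 0 at 6 HAT. At 1 HAT 4 of the root markers were 2-fold higher in erf71 than in WT, beside 8.22% of all tested genes, with a median ratio of 1.46, while the green marker median was −0.62 and that of the 8 antenna genes −0.87. The part of tissue makeup, of the clock and of the scaling of the libraries in the antenna values was not tested.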

How the data were processed

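The authors prepared TruSeq mRNA libraries from whole seedlings (base calls with CASAVA 1.8.2, per the submitters' processing notes), aligned reads to the IRGSP-1.0 genome with TopHat2 and Bowtie, and deposited FPKM computed by Cufflinks per RAP gene. Vandana reads were aligned to the same genome. The table holds FPKM, not counts, so depth, counting error and read sharing between gene copies are not known. Its 9 columns name plant and hour but not the kind of library and were taken as the mRNA libraries. The deposited tables of miRNA and lincRNA were not used here.

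Changes were computed as log2 ratios of FPKM + 0.1 in Python 3.11.15 with pandas 2.3.3. With 1 library per group no p-value was computed. The code for the 2-fold calls and the scalings was checked on simulated 4-fold changes and on a uniform 1.5-fold shift of all genes. A change in composition, such as that of the Vandana library at 6 HAT, was not simulated. All 8 members are named, the 5 genes of most like profile, and for each list the genes of lowest and highest change in WT by 6 HAT. Medians and single values moved when they crossed 2-fold or shifted by over 1.5-fold, and counts and shares when they differed by over 1.5-fold. Alternatives were 1 FPKM added, 3 scalings (equal sum, upper quartile, median ratio), a 4-fold threshold, other minimum levels and the mean. Added after seeing the data were leaving out Os09g0346500, the Vandana library labelled 1 HAT as the start, the sum of the Lhcb1 genes, and the summed levels under each scaling. The members and lists were chosen with earlier results of these data known. No sequences were printed.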

Additional observations from a re-analysis of the deposited data

Results flagged for a closer look

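Some changes ran in opposite directions in 2 plants. In each case the difference was not tested, as each plant had 1 library per time. From 0 to 1 HAT the change in erf71 minus that in WT had a median of −0.50 over the 8 genes (log2), with 0.05 as the median change in WT and −0.42 in erf71. The genes above 0 in WT and below 0 in erf71 were Os01g0600900 (difference −0.86), Os09g0346500 (−0.45), Os07g0562700 (−0.55), Os07g0558400 (−0.52), Os11g0242800 (−0.48) and Os04g0457000 (−0.67). Between the same labelled times, the change in Vandana minus that in WT was −0.56 for Os01g0600900 and −0.073 for Os09g0346500, in a pair of Vandana libraries whose labels Dip1 runs against. From 0 to 6 HAT, Os09g0346500 was at −1.09 in WT and 0.10 in Vandana, a difference of 1.19.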

How the results depend on the processing

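Medians and counts over the 8 genes were recomputed under each alternative. A median was kept when it stayed on its side of 2-fold and within 1.5-fold. A count was kept when it differed by at most 1.5-fold. Genes could therefore cross 2-fold in a kept count, as from 8 to 7 fallen in WT from 0 to 6 HAT. In all, 166 values were kept and 16 were not. Most of these involve the Vandana library at 6 HAT. Scaling raised all its values by 1.36 (upper quartile) or 1.10 (median ratio) on the log2 scale relative to the library labelled 0 HAT. The Vandana median from 0 to 6 HAT was then −1.37 or −1.63, and from 1 to 6 HAT −1.63 or −1.86. Vandana to WT at 6 HAT became 1.42 or 1.17, with 6 or 5 genes beyond 2-fold. At 4-fold the number of differing genes was 0 for erf71 to WT at 1 and at 6 HAT, 0 for Vandana to WT at 0 HAT and 1 at 6 HAT. Upper quartile scaling left 1 gene beyond 2-fold for erf71 to WT at 1 HAT and 0 for Vandana to WT at 0 HAT, and equal sum and median ratio scaling gave 1 for Vandana to WT at 1 HAT. With the Lhcb1 genes summed, the lower level of Os01g0720500 in Vandana turned to 0.57 at 0 HAT and 1.54 at 6 HAT. In Vandana by 6 HAT, Os09g0346500 rose 2-fold after upper quartile (1.46) or median ratio scaling (1.20), while Os01g0600900 no longer fell 2-fold (−0.67 and −0.93), nor did Lhcb3 after upper quartile scaling (−0.98), which left 5 and 6 fallen genes. The falls in WT and erf71 kept all 8 genes below 0 under each scaling. Lhcb2 from 0 to 1 HAT in WT went from −0.08 to above 0 under all 3 scalings. The causes were not tested. No paired analysis was possible because each group has 1 library.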
